A study of Homo sapiens with 2 samples.

Results

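The epidermal growth factor (EGF) family and its ERBB receptors were examined in KYSE-170, a line of human oesophageal squamous cell carcinoma. A set of 10 genes was named: the receptors EGFR, ERBB2 and ERBB3, the ligands AREG, EREG, HBEGF, TGFA, BTC and NRG1, and the inhibitor ERRFI1. Members were the probes whose platform gene symbol, brought up to its current name, was one of these. This gave 7 genes with 1 probe each, among 12445 named genes and 24267 probes. AREG, HBEGF and ERRFI1 had no probe under a current or older symbol and were not analysed here.

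The study transfected the cells with an oligoribonucleotide for miR-210, a microRNA that cells make more of in hypoxia, or with one called ncRNA, whose sequence the labels do not give. Both groups are the same line grown in serum-containing medium and transfected with the same reagent. Each group was 1 array, hybridised with Cy5-labelled cRNA made from 500 ng of total RNA. With 1 array per group there is no replicate and no test, so each value stands for 1 hybridisation. For the oligoribonucleotide dose and the time after transfection, the labels give no value.

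ERBB receptors are receptor tyrosine kinases of the epithelial cell surface that pair when a ligand binds. EGFR binds TGFA, AREG, EREG, BTC and HBEGF, while ERBB3 binds neuregulins such as NRG1 and depends on a partner for most of its kinase signal. ERBB2 has no known ligand of its own and is the preferred partner of the others. The ligands are made as membrane precursors and released by proteases, and receptor signals run through RAS and ERK and through PI3K and AKT. In squamous epithelium this pathway is known for driving proliferation of the basal layer.

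The transfected microRNA is the sequence that separates both arrays, so its mature arms from RefSeq (GRCh38.p14) are shown with the seed, bases 2 to 8, in capitals. The labels do not say which arm was used. The 3p arm lies at chr11:568112-568133 and the 5p arm at chr11:568150-568171, both on the minus strand.
hsa-miR-210-3p: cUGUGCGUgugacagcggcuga
hsa-miR-210-5p: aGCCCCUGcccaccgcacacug

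The arrays were close in level, with median intensities of 36 on the miR-210 array and 39 on the ncRNA array. The arrays were quantile normalized and each difference is a log2 ratio, miR-210 minus ncRNA, so that a positive value is higher with miR-210. A gene was kept by the level filter if its mean level was at or above the probe median, an intensity of 37.5, and 6684 genes were kept. FGFRL1, the reported miR-210 target that the study is known for, read 21 on the miR-210 array and 277 on the ncRNA array, 12.4-fold lower. Because the study itself is known for this target, its value here is not an independent check. The reported targets GPD1L and ISCU were also lower, at log2 ratios of -1.21 and -0.43. The value of ISCU is within the SD of 0.44 between probes of a gene, given below. Of 13 kept reported targets 10 were under 0 and 3 above it, and 3 were at least 2-fold lower. FGFRL1 is counted among these 3. So is HOXA9, at -1.37, but its second probe, under the level filter, was at 0.44 (24 with miR-210, 18 with ncRNA). Over all kept genes 48.6% were under 0 and 3.19% at least 2-fold lower. Of 12 squamous epithelial markers measured, 11 were kept, 9 of them above 0, with a median log2 ratio of 0.49. The 2 markers at least 2-fold higher were ITGA6 at 1.89 and KRT17 at 1.01. The 2 under 0 were SFN at -0.57 and ITGB4 at -0.54. KRT17 read 2736 on the miR-210 array and 1541 on the ncRNA array, which is under 2-fold before normalization. Over all kept genes 50.2% were above 0 and 3.02% at least 2-fold higher. The squamous transcription factor gene TP63, named for being the one under the filter, read 22 on the miR-210 array and 57 on the ncRNA array. Of the markers of other cell types, 4 of 9 fibroblast, 4 of 8 endothelial and 1 of 7 leukocyte markers were kept. The filter kept 6684 of all 12405 named genes with values above 0, so these counts alone do not show weak representation. CD79A, the leukocyte marker kept, read 126 on the miR-210 array and 133 on the ncRNA array. The 6 leukocyte markers under the filter read between 10 and 27 on the miR-210 array and between 6 and 25 on the ncRNA array. Of these, MS4A1 and NKG7, chosen after their values were seen, each read 12 on the miR-210 array and 6 on the ncRNA array.

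Most of the family lay at the dim end of the array. The level filter kept 2 of the 7 genes, TGFA and NRG1, and 4 were under the median intensity on both arrays. A gene at this level is not shown to be unexpressed, because the deposited values carry no detection call and the response of each probe is unknown. For the same reason the intensities of different genes are not set against each other.

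**Figure D1:**
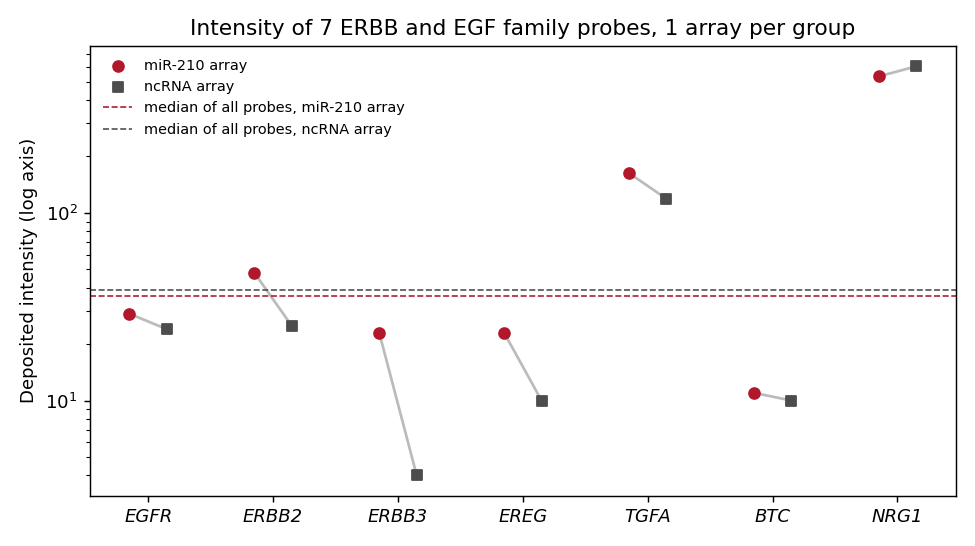
Deposited intensity (log axis) of the 7 family probes on the miR-210 array (circles) and the ncRNA array (squares), 1 array per group and no error bars, with dashed lines at the array medians of 36 and 39. Only TGFA and NRG1 lie above the median on both arrays, and ERBB3 has the widest gap, at 23 on the miR-210 array and 4 on the ncRNA array. Heights of different probes are not comparable.

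Among the receptors, ERBB2, the partner receptor without a ligand, read 48 on the miR-210 array and 25 on the ncRNA array. It was the only receptor with a value over an array median, and only on the miR-210 array. Its log2 ratio was 1.01, or 2.02-fold higher. ERBB3, the neuregulin receptor, read 23 on the miR-210 array and 4 on the ncRNA array, a log2 ratio of 2.55. Both values lay under the array medians, and the ncRNA value was under the 25th percentile of its array, 17. EGFR itself read 29 on the miR-210 array and 24 on the ncRNA array, a log2 ratio of 0.35. All 3 receptors were higher on the miR-210 array, each at a level where the deposited intensities are small whole numbers.

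Among the ligands, TGFA, which activates EGFR, was well above the filter at 163 on the miR-210 array and 119 on the ncRNA array. Its log2 ratio was 0.56, or 1.47-fold higher. NRG1, the neuregulin that binds ERBB3, was also well above the filter, with 534 on the miR-210 array and 604 on the ncRNA array. Its log2 ratio was -0.09, the only negative one in the family. NRG1 makes many isoforms, and which of them this probe reads was not examined.

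EREG, a low-affinity ligand of EGFR and ERBB4, read 23 on the miR-210 array and 10 on the ncRNA array, a log2 ratio of 1.23. BTC, a ligand shared by EGFR and ERBB4, was almost equal at 11 on the miR-210 array and 10 on the ncRNA array, a log2 ratio of 0.14. Both ligands were under the 25th percentile of 17 on the ncRNA array, and BTC was also under it on the miR-210 array. EREG, AREG and BTC follow each other in the RefSeq gene order with no protein-coding gene between them. Of these neighbours, EREG was past 2-fold and BTC was not, and AREG was not analysed here.

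An error could be taken only from genes that several probes read. Over 251 genes with at least 2 kept probes, the SD of a probe's log2 ratio within its gene was 0.44, and the ratios of both probes had a Spearman rho of 0.29 across genes. Over 263 genes with at least 2 probes under the filter, that SD was 0.96. The rho was -0.02 across these dim genes, and genes are not independent replicates. TGFA, at 0.56, was past the SD for kept probes and NRG1 was within it. Of the dim genes, EREG and ERBB2 were past the SD of 0.96 by little, at 1.23 and 1.01, and EGFR and BTC were within it. The 2.55 of ERBB3 was further out, but it is taken against an intensity of 4 on a background-subtracted array, so its size is poorly defined, and among genes of its own level the ratios had a SD of 1.35. Each family gene had 1 probe, so no second probe checks any of these ratios, and differences between cultures are not covered.

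Counted by a fold of 2, ERBB3, EREG and ERBB2 were higher on the miR-210 array and none of the 7 was lower. Over all 12405 named genes with values above 0, 7.05% were at least 2-fold higher and 6.95% lower. Among the 5721 genes under the level filter, where all 3 lie, these shares were 11.7% and 11.3%. Among the kept genes they were 3.02% and 3.19%, and neither TGFA nor NRG1 reached the fold. In all, 6 of the 7 ratios were above 0 and their median was 0.56, against 50.1% of all named genes above 0 and a median of 0.00. The 7 ratios come from 1 pair of arrays and were not tested, so this count describes these arrays only.

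The spread of ratios widened toward the dim end. In the dimmest of 10 equal classes of genes by mean level, which holds ERBB3 and BTC, 23.9% of 1241 genes were past 2-fold and higher and 22.8% past it and lower. There the 95th percentile of the log2 ratio was 2.0, under the 2.55 of ERBB3. The next class, with EREG, had 13.3% at least 2-fold higher and a 95th percentile of 1.48, above the 1.23 of EREG. In the class of ERBB2, 3.95% of 1241 genes were at least 2-fold higher and the 95th percentile was 0.95, just under the 1.01 of ERBB2. The ratios of EGFR, TGFA, BTC and NRG1 were inside the central 90% of their own classes.

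**Figure D2:**
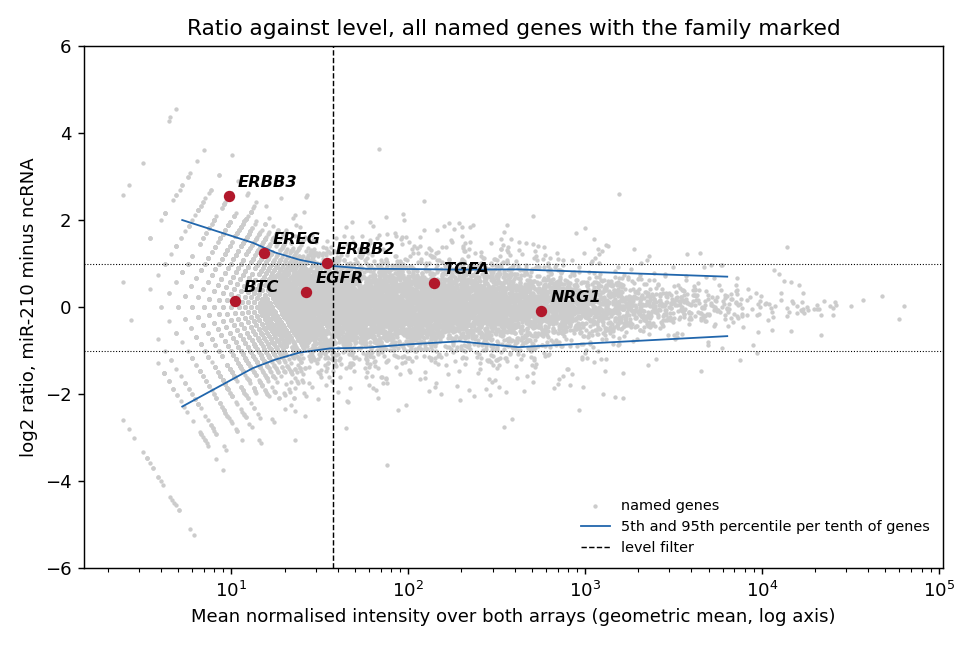
Log2 ratio (miR-210 minus ncRNA) against the mean normalised intensity over both arrays (log axis) for the 12405 named genes (grey), with the 7 family genes in red, lines at the 5th and 95th percentile of each of 10 level classes, dotted lines at 2-fold and a dashed line at the level filter of 37.5. ERBB3 and ERBB2 lie above the upper percentile line of their class, while EREG, at 1.23, is under the 1.48 of its class.

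The 3 ratios past 2-fold depended on how dim values were treated. With an offset of 10 added before log2, ERBB3 was 1.26, ERBB2 0.79 and EREG 0.74, so that only ERBB3 reached 2-fold, where 2.12% of all named genes did in the higher direction. With an offset of 50 they were 0.44, 0.42 and 0.29, and no family gene reached 2-fold, against 0.701% of all named genes in the higher direction. TGFA, further from the dim end, was 0.52 with the offset of 10 and 0.41 with the offset of 50. On the deposited scale, without normalization between arrays, ERBB2 was 0.94 and under 2-fold, and ERBB3 and EREG stayed past it at 2.52 and 1.2, where 6.42% of all named genes were at least 2-fold higher. The sign of each of the 7 ratios was the same on the deposited scale. An offset added to both values cannot change a sign, so the offset settings do not check it.

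**Figure D3:**
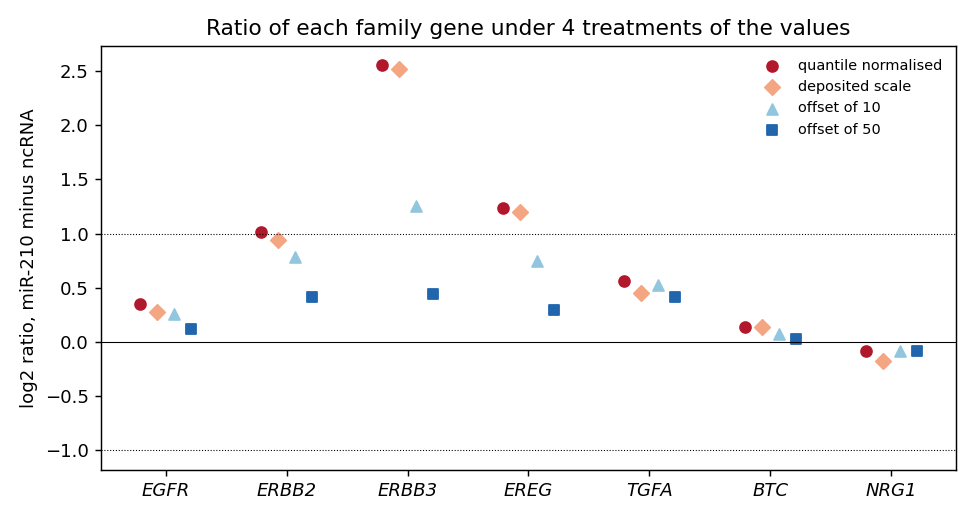
Log2 ratio (miR-210 minus ncRNA) of each family gene after quantile normalization, on the deposited scale, and with an offset of 10 or 50 added before log2, with dotted lines at 2-fold. ERBB3 spans 2.55 to 0.44, whereas TGFA spans 0.56 to 0.41 and NRG1 stays slightly under 0.

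Other genes of the family were on the array outside the named set. EGF, the founding ligand, was nearly equal at 160 on the miR-210 array and 175 on the ncRNA array, a log2 ratio of -0.02. ERBB4, the neuregulin receptor with an active kinase, read 8 on the miR-210 array and 10 on the ncRNA array, and NRG2, another neuregulin, read 24 on the miR-210 array and 20 on the ncRNA array. ERBB4 and NRG2 were under the level filter, with log2 ratios of -0.32 and 0.33.

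Genes around the receptors were followed in 7 lists, which together held 69 kept genes. Of these, 42 were above 0 and 27 under it, with a median of 0.20, against 0.01 for all kept genes. At least 2-fold were 8 genes in the higher and 2 in the lower direction, 14.5% of the 69, against 6.21% of all kept genes. IL11, ATF3, FOS and SPRED2 were known to be past 2-fold when the lists were drawn up. The count is therefore not independent of these data. Without these 4 it was 6 of 65 genes, or 9.23%. The lists as a whole were chosen with earlier results of these data known, so that count is not independent either. With an offset of 50, TGFBR3 at 1.07, STAT5B at 1.01, IL11 at 1.24 and PLAUR at 1.31 stayed past 2-fold. STAT3 at 0.91, FURIN at 0.69, ATF3 at 0.96, FOS at 0.53, SPRED2 at -0.94 and SOCS4 at -0.66 did not. Of all 6684 kept genes, 87 were at least 2-fold higher and 94 lower with that offset.

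Of the genes of ligand release and trafficking, 8 of 9 kept genes were above 0 with a median of 0.38, and 2 of the 9 were past 2-fold. Over all kept genes 50.2% were above 0 and 6.21% were past 2-fold either way. The squamous markers above had a median at least as large, and 5 of the 9 ratios were within the SD of 0.44, so nothing particular to ligand release is read from the count. FURIN, the proprotein convertase that activates ADAM proteases, was 2.53-fold higher at 80 on the miR-210 array and 34 on the ncRNA array. ADAM17, the main protease that sheds TGFA, AREG and HBEGF, had a log2 ratio of 0.68 (48 with miR-210, 32 with ncRNA), and BACE1, a protease that cuts NRG1, had 0.49 (49 with miR-210, 37 with ncRNA). TGFBR3, at 3.87-fold higher (116 with miR-210, 32 with ncRNA), is a TGF-beta co-receptor and not a protease of EGF ligands. The ncRNA values of these 4 genes all lay under that array's median of 39 and under the level filter of 37.5. These 4 genes were therefore kept only through their higher miR-210 values, and both genes past 2-fold are among them. The counts above 0 and past 2-fold are thus not independent of the filter.

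Adaptors and effectors at the receptor were split, with 6 of 12 kept genes above 0 and 6 under it and a median of 0.04, or 0.25 over all 20 genes measured with no level filter. The transcription factors STAT3 and STAT5B, which ERBB and cytokine receptors activate, were 3.01-fold higher (112 with miR-210, 40 with ncRNA) and 2.96-fold higher (151 with miR-210, 55 with ncRNA). The phosphatase PTPN11, which carries receptor signals to RAS, had a log2 ratio of -0.63 (2220 with miR-210, 3893 with ncRNA). The RAS exchange factor SOS1 had 0.35.

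Genes that restrain or degrade the receptors had 7 of 12 kept genes above 0 and a median of 0.14, with the mean at -0.11. The largest differences were in the lower direction. SPRED2, an inhibitor of RAS and RAF signalling, was 2.15-fold lower (194 with miR-210, 454 with ncRNA). SOCS4, a suppressor of cytokine signalling protein reported to act on EGFR, was 2-fold lower (67 with miR-210, 144 with ncRNA). HGS, which sorts ubiquitinated receptors in endosomes, and the phosphatase PTPRK had log2 ratios of -0.44 and -0.37.

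The cascades downstream had few kept genes. In the RAS and ERK list 2 of 4 kept genes were above 0, with the kinase MAP2K1 at 0.83, the ERK-activated kinase RPS6KA1 at -0.75, RPS6KA3 at 0.20 and HRAS at -0.10. In the PI3K and AKT list 3 of 8 were above 0 and the median was -0.16. There the S6 kinase RPS6KB1 was at 0.84, the catalytic subunit PIK3CA at -0.80, the regulatory subunit PIK3R3 at 0.68 and the adaptor IRS2 at -0.61. None of these kept genes reached 2-fold, which says little beside a share of 6.21% over all kept genes. Under the level filter, MAPK3, which encodes the kinase ERK1, was at 1.33 (45 with miR-210, 19 with ncRNA). The adaptor IRS1 was at 1.19 (43 with miR-210, 20 with ncRNA), and both were named after their values were seen. The other dim genes of these lists were PIK3R1 at -0.88, PIK3R2 at -0.23, MAP2K2 at -0.11, AKT1 at 0.30 and AKT2 at 0.62. Among all genes under the filter 11.7% were at least 2-fold higher.

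Among genes known to respond to EGF and ERK, 16 of 23 kept genes were above 0 and the median was 0.20. PLAUR, the urokinase receptor, was 3.41-fold higher at 257 on the miR-210 array and 82 on the ncRNA array. IL11, ATF3 and FOS were 4.22-fold, 2.66-fold and 2.05-fold higher, and all 3 also respond to other stress and cytokine signals. On the ncRNA array IL11, at 38, and FOS, at 37, were under the array median. FOS was under 2-fold on the deposited scale, at a log2 ratio of 0.94. No kept gene of this list was 2-fold lower after normalization, but CXCL8 was close, at -0.996 (688 with miR-210, 1522 with ncRNA). On the deposited scale CXCL8 was past 2-fold lower. Over all kept genes 3.02% were at least 2-fold higher and 3.19% lower, so the absence of lower genes says little.

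**Figure D4:**
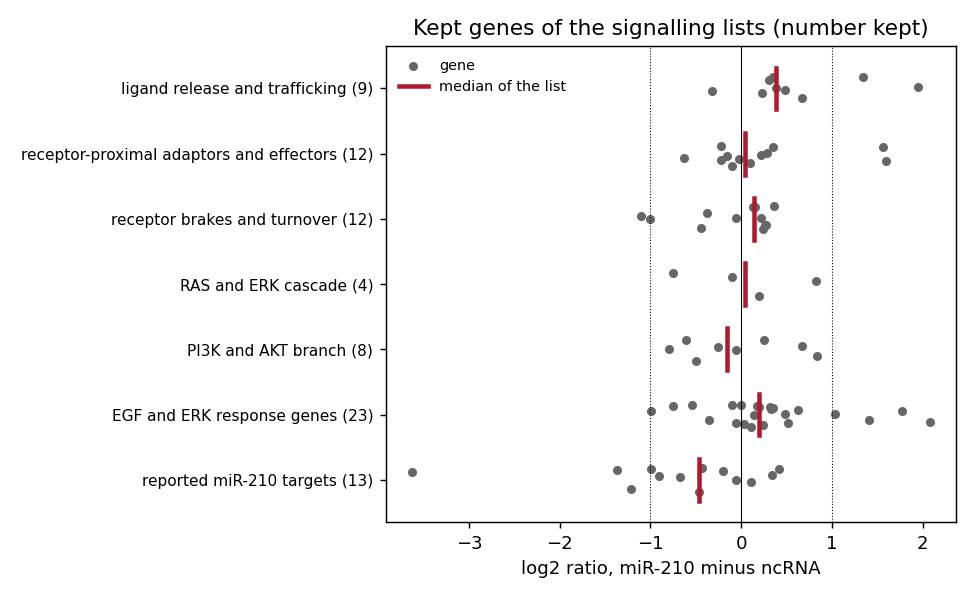
Log2 ratio (miR-210 minus ncRNA) of each kept gene (points, shifted vertically only for sight) in 6 signalling lists and in the reported miR-210 targets, with the number kept in brackets, red bars at the list medians and dotted lines at 2-fold. The list medians run from -0.16 to 0.38 in the signalling lists, and the reported targets have a median of -0.47.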

How the data were processed

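Total RNA of 2 transfected cultures was measured on 1-colour oligonucleotide arrays. The authors deposited intensity values on a linear scale, read as such from the values, which are whole numbers between -8 and 65496. Values under 0 occur, so a background had been subtracted. The scanner software and any normalization by the authors were not given in the sources used here. Groups came from the sample titles.

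The 24177 probes above 0 on both arrays were taken to log2 and quantile normalized with numpy 2.4.6 and pandas 2.3.3. This procedure was tested on simulated data, with shifts placed only in brighter probes. It was therefore not tested at the level of the family genes under the filter. The level filter was the median of the mean log2 level, and a gene took its brightest kept probe. Of the 24267 probes, 13395 had 1 symbol and 10872 are unnamed here. Of 12474 symbols, 2285 were updated through the RefSeq table of GRCh38.p14. No coordinates of array genes are given, because no build is named for the array.

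Every member is named, with at most 4 genes of each list by the size of the ratio. All measured genes of the wider family are named too, and FGFRL1, GPD1L and ISCU as a check. For FGFRL1 that check is not independent of the study. Marker genes outside this rule are TP63, MS4A1, NKG7, CD79A, ITGA6, KRT17, SFN and ITGB4. CXCL8 and the dim genes of the cascades downstream, such as MAPK3 and IRS1, also fall outside it. All of these were chosen after their values were seen. The members and lists were chosen with earlier results of these data known. Alternatives covered normalization, offsets of 10 and 50, the level filter and the probe rule (loess with statsmodels 0.14.6). Depth does not apply to arrays, and their number limits the precision.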

Additional observations from a re-analysis of the deposited data

How the results depend on the processing

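Of 134 values recomputed under the alternatives for 19 results, 114 kept their side of 2-fold and moved by less than the SD between probes (for list medians, the standard error that this SD gives a median) or, for counts, by no more than 1.5 times. Part of the 114 was fixed in advance. Each family gene had 1 probe, so neither the probe rule nor the level filter could change its ratio. With an offset of 10 ERBB3 was 1.26, ERBB2 0.79 and EREG 0.74. With an offset of 50 they were 0.44, 0.42 and 0.29. ERBB2 was 0.94 on the deposited scale. Of the kept family genes, 0 reached 2-fold under the main filter, and without a level filter 3 did. With no level filter, chosen after seeing the data as the way to count all 7, 1 of them was past 2-fold with an offset of 10 and 0 with an offset of 50. Without IL11, ATF3, FOS and SPRED2, a choice also made after seeing the data, 9.23% of the signalling list genes were past 2-fold, against 14.5%. Over all genes, those at least 2-fold higher and lower numbered 202 and 213. They numbered 87 and 94 with an offset of 50, 874 and 862 without a level filter, and 95 and 97 with the filter at the 75th percentile, where fewer genes were counted and only NRG1 of the family remained. On the deposited scale the counts were 140 and 318. The higher share was then 30.6% in place of 48.7%, with the median gene at -0.12 in place of 0.01. On that scale the median was 0.086 for the EGF and ERK response list and -0.62 for the reported targets. The adaptor list median was 0.25 without a level filter. The medians of the adaptor list (-0.07) and of the RAS and ERK list (-0.06) were under 0 on the deposited scale, as was the adaptor list with the filter at the 75th percentile (-0.10). That filter left fewer than 3 genes in the RAS and ERK list and in the PI3K and AKT list, which gave no value there. No paired analysis was possible because each group has 1 array.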
